A study of Mus musculus with 32 samples.

Results

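The genes described here are 47 genes of homologous recombination and DNA crosslink repair, named for BRCA1, BRCA2 and the Fanconi anemia proteins. They were picked as a list of symbols, and all 47 were found among the 24538 genes of a table of RNA levels. The RNA came from S49 mouse lymphoma cells, a T cell line that dies when treated with glucocorticoids. S49 (Bcl-2) cells carry the Bcl-2 proto-oncogene in addition to the neomycin resistance retrovirus, and S49 (Neo) cells, stably transfected with that retrovirus alone, were their counterpart. In both lines, cells given 250 nM dexamethasone (dex), a synthetic glucocorticoid, were compared with cells not given dex (control) after 48 h and after 24 h. The 8 groups held 4 libraries each, 32 altogether. Each construct is represented by 1 line, so the construct and other differences between the lines cannot be told apart. Whether a line is a clone and what a replicate number marks are not stated, and p-values measure only the spread between these libraries, which may be technical.

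Homologous recombination copies the lost sequence from the sister chromatid, and so works mainly in cells that are replicating or have replicated their DNA. The ends of a break are resected to single strands, BRCA1, PALB2 and BRCA2 prepare them for the search for the matching sequence, and helicases and nucleases later resolve the joined molecules. The Fanconi core complex is a ubiquitin ligase that marks the FANCD2 and FANCI pair at crosslinks and stalled forks, and so opens the way to the same recombination machinery. Immature T cells also break their own receptor genes, but those breaks are joined mainly by the end joining pathway, which is a separate set of genes.

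Values below are log2 normalized values of the deposited table, so a difference of 1 is a doubling, and lists of 4 values run from replicate 1 to 4. They are not divided by gene length, so levels are compared between groups and not between genes. A gene is called higher or lower where limma gave an adjusted p under 0.05 (Benjamini-Hochberg over all genes tested). All 47 genes passed the filter on low values. The Bcl2 gene itself had 10.48 to 11.45 in the S49 (Bcl-2) libraries, against 7.70 to 8.62 in the S49 (Neo) libraries, so the labels of the lines held in every library. Of T cell markers 10 of 11 were above the filter and of B cell markers 0 of 6. Cd5 was the T cell marker under it (mean -1.28). Of the macrophage and granulocyte list 3 of 9 were above the filter and of the stromal, endothelial and epithelial list 2 of 10. The summed levels of these lists over the libraries were 702 to 1310 and 374 to 1611 normalized units, against 105270 to 206690 for the T cell list and 9.93 to 17.5 for the B cell list. The T cell sum was 105270 to 118260 in S49 (Bcl-2) 48 h dex libraries, against 154130 to 167390 in their controls, and the stromal list was also lower with dex in both lines (374 to 478 in S49 (Bcl-2) at 48 h, against 1304 to 1422 in controls). Their part in the results below was not tested.

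A single library stood apart from its group before any comparison. S49 (Bcl-2) 24 h dex replicate 3 differed from the mean of the other 3 with an SD over genes of 0.766, against 0.263 to 0.313 for replicates 1, 2 and 4. The means behind the latter values include replicate 3. In the other groups this SD ran from 0.107 to 0.208. Among the repair genes the median deviation was -0.29, 30 of 47 were lower in it, and single genes ran from -2.43 for Brcc3 to 0.62 for Mus81. Beside this stood the GC content of the longest transcript (deviation against GC content gave Pearson r = 0.866 and Spearman rho = 0.950 over 47 genes of the same libraries, a description across genes, which are not independent replicates), and its part in the results was not tested. Chek1 had 9.77 in this library, against 11.83, 11.79 and 11.77 in the others of its group. The plot of deviations against GC content shows the whole list. The main counts are given below with it and without it, and leaving it out was chosen after the data were seen.

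**Figure D1:**
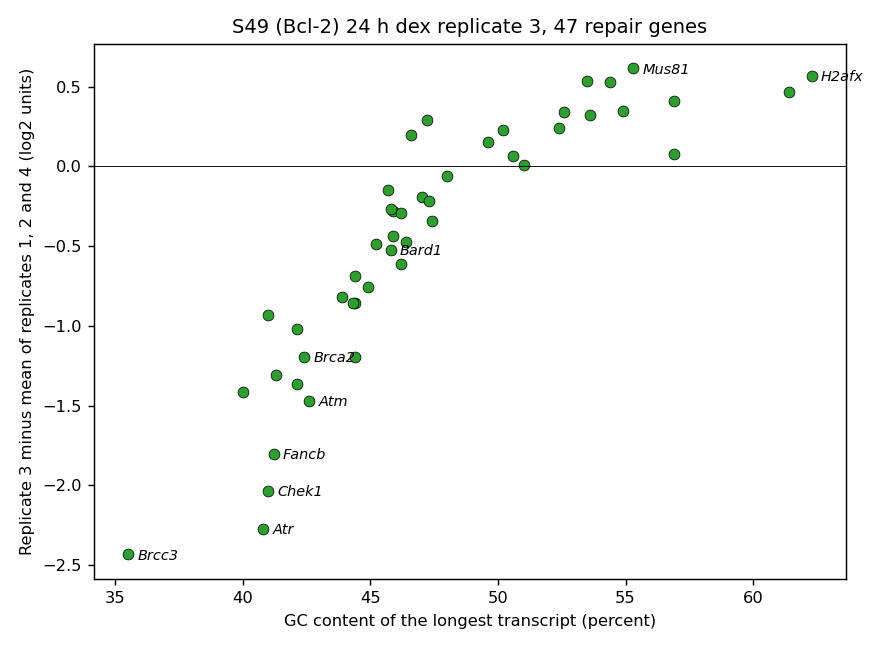
Deviation of S49 (Bcl-2) 24 h dex replicate 3 from the mean of replicates 1, 2 and 4 (vertical axis, log2 units) against the GC content of the longest transcript (horizontal axis, percent), 1 point per repair gene. The 47 points run from -2.43 for Brcc3, the lowest GC content at 35.5 percent, to 0.62 for Mus81, and the points at low GC content lie lowest.

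The windows around the start sites of the list are shown first, because many S phase genes share short letters there that the E2F factors, the main transcription factors of S phase genes, are known to bind. RefSeq windows of 300 bases (GRCm38.p6, 250 bases before to 50 after the start) were found for 36 of 47 genes. They were searched on both strands for TTTCCCGC, TTTGGCGC, TTTCGCGC, TTCCCGCC, TTGGCGCC and TTGGCGGG, some of which overlap in part. Of the 36, 14 (38.9%) held at least 1 of these letters, against 4.91% of 27025 mouse windows and 9.37% of 8903 windows of genes tested here. The CCAAT box was in 24 (66.7%), against 37.9% and 40.2%. AGAACA, letters that the glucocorticoid receptor is known to bind, was in 2 (5.56%), against 19% and 12.3%. The cell cycle element (TTTGAA or TTCGAA) was in 5 (13.9%), against 19.4% and 13.9%, the NRF1 core (GCATGCGC) in 3 (8.33%), against 2.8% and 5.98%, and the E-box (CACGTG) in 2 (5.56%), against 7.24% and 10.4%. A match is a run of letters, not a bound site.

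Printed here are the windows of 4 genes that stand at the centre of the results and hold E2F letters, and of Mus81, which holds none and which was higher with dex in both lines. Brca1 is at chr11:101551906-101552205 on the minus strand, Bard1 at chr1:71102923-71103222 on the minus strand, Rad51ap1 at chr6:126939538-126939837 on the minus strand, Chek1 at chr9:36726609-36726908 on the minus strand and Mus81 at chr19:5488330-5488629 on the minus strand. Each covers the end of the 5′ flank and the first transcribed bases, and capitals mark the E2F letters.
Brca1: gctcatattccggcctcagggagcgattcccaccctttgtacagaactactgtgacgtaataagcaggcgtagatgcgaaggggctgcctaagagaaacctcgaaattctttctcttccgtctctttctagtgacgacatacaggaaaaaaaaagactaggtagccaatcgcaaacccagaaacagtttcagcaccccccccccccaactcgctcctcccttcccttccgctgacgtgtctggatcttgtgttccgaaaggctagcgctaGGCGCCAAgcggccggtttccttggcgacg
Bard1: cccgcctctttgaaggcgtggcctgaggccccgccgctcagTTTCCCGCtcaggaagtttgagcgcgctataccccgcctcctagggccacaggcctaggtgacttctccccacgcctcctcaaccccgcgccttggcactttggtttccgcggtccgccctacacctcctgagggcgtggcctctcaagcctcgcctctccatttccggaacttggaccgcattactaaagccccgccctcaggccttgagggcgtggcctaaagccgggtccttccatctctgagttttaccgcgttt
Rad51ap1: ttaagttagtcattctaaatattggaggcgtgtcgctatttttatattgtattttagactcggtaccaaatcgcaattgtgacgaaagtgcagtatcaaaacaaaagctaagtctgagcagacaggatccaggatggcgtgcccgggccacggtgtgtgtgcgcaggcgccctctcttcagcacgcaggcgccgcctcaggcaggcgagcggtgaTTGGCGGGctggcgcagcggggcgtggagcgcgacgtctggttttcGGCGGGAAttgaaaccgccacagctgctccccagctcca
Chek1: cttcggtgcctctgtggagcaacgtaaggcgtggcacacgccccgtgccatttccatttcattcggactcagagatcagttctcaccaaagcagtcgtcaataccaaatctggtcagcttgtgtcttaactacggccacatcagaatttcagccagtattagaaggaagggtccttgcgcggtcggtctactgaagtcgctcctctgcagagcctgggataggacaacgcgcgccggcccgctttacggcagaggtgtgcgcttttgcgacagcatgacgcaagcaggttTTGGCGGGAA
Mus81: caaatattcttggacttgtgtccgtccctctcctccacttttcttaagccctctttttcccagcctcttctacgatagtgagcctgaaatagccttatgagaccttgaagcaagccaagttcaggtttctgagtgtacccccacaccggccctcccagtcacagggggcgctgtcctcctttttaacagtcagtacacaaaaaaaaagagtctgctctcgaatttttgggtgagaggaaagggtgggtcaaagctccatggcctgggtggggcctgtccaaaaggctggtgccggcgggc
In Chek1 the capitals are a pair of overlapping matches at the end of the window, just after the start site.

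Most of the list was lower with dex in S49 (Bcl-2) cells after 48 h. There 32 of 47 genes were called lower, 2 higher and 13 not at all, and the median change was -0.63 for the list, against -0.01 over all 11592 genes tested. Much of the transcriptome changed too, with 62.4% of all genes called (31.4% lower and 31% higher), so the 32 of 47 is to be read against that share. After 24 h 23 of the repair genes were lower, 3 higher and 21 not called (median -0.32, against -0.04 over all genes), where 58.1% of all genes were called (29% lower and 29.1% higher). Without the library that stood apart, 38 were lower and 4 higher at 48 h (79.8% of all genes called), and 30 were lower and 4 higher at 24 h (median -0.20, with 73.4% of all genes called). The response itself was lower at 48 h than at 24 h for 19 genes and higher for 1 (median difference -0.32), where 27.4% of all genes were called (16.3% lower and 11.1% higher). Leaving out that library made it 34 lower and 5 higher (50% of all genes).

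Fewer of the 47 were called in S49 (Neo) cells. After 48 h 18 genes were lower, 5 higher and 24 not called (median -0.17, against -0.002 over all genes), where 55.3% of all genes were called (28% lower and 27.3% higher). After 24 h 12 were lower, 6 higher and 29 not called (median -0.05), where 50.5% of all genes were called (25.5% lower and 25% higher), so the lower count was near the background and the higher count was under it. The split at 24 h shifted with the scaling, to 16 lower and 4 higher under quantile normalization and 15 lower and 4 higher with library medians set equal. The share of all genes called under these scalings was not counted, so these counts have no background. The spread in these fits was shared with all 32 libraries, and without the library that stood apart 26 were lower and 10 higher at 48 h (70.8% of all genes called) and 19 lower and 11 higher at 24 h (66.8%). Across both lines and both times 11 genes were lower throughout (Bard1, Rad51b, Rad54b, Fancc, Fance, Fancf, Fancl, Fancd2, Mre11a, Exo1 and Mdc1), 2 were higher throughout (Rad51d and Mus81), and 9 were called in none (Uimc1, Brcc3, Rad51c, Rbbp8, Wrn, Rmi1, Atm, Atr and Rnf168). Those patterns rest on the library that stood apart as well. With it left out 16 were lower throughout (these 11 with Palb2, Fanca, Fancb, Nbn and Blm), the same 2 were higher throughout and 0 were called in none. The share of all genes with such patterns was not counted, so these counts have no background. The remaining patterns are in the map of the 47 genes. Bulk RNA does not tell fewer cells of a kind, for example fewer cells in S phase, from less RNA per cell.

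**Figure D2:**
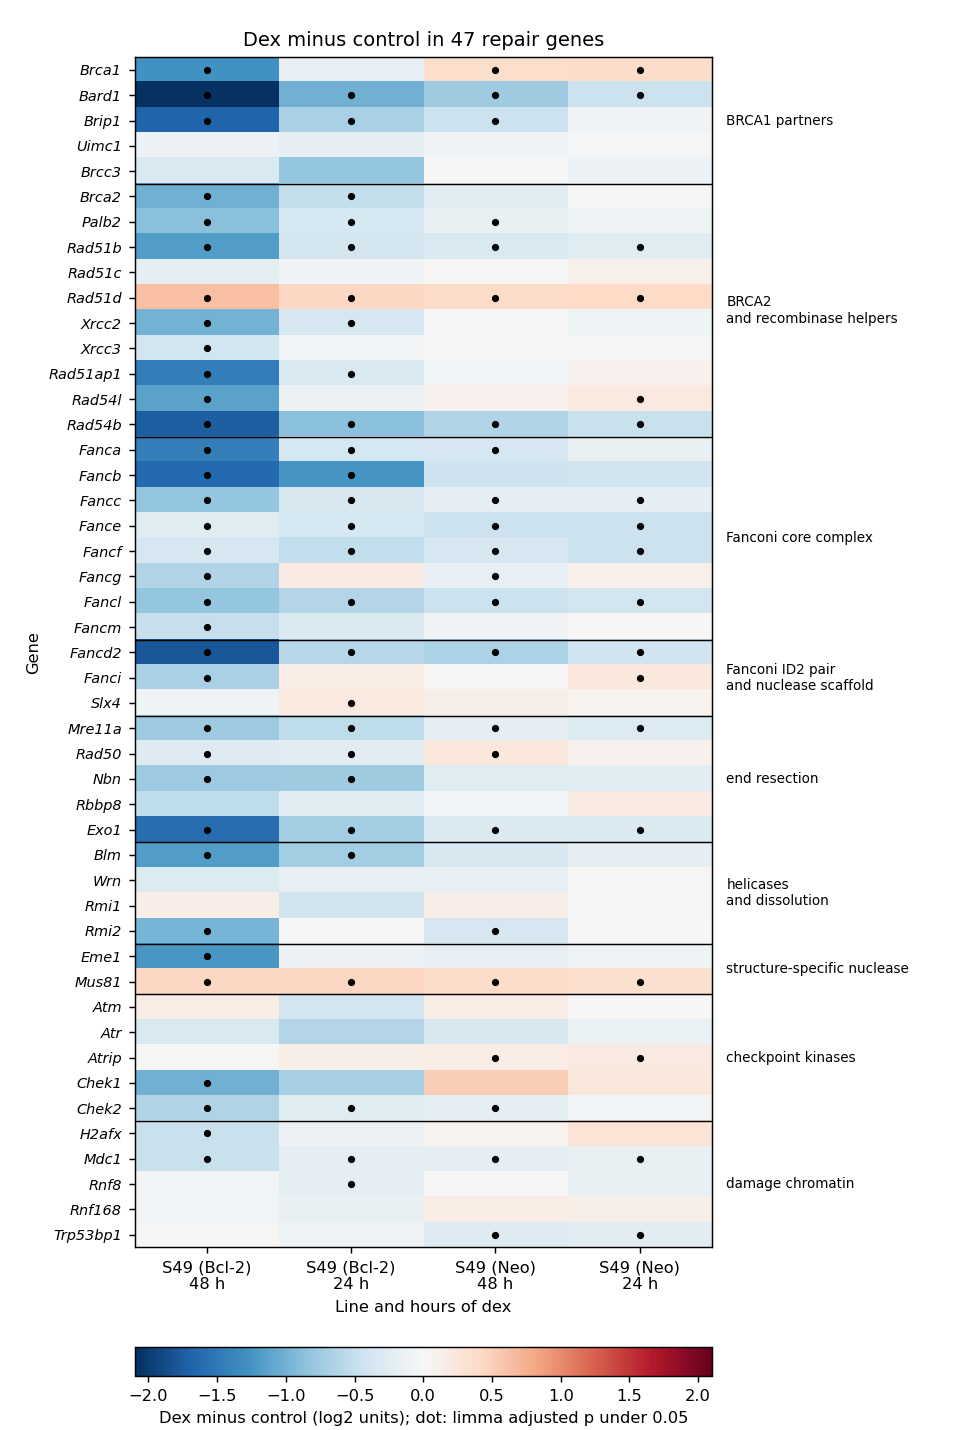
Dex minus control (colour, log2 units, blue for lower with dex) for 47 repair genes (rows, grouped by role) in S49 (Bcl-2) and S49 (Neo) cells at 48 h and 24 h (columns). Black dots mark genes called by limma (adjusted p under 0.05), 34 genes in S49 (Bcl-2) at 48 h and 23 in S49 (Neo) at 48 h.

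Among the partners of BRCA1, the scaffold and ubiquitin ligase that steers breaks into recombination, 3 of 5 were lower at 48 h and 2 of 5 at 24 h in the Bcl-2 line, where 31.4% and 29% of all genes were lower. These counts were 5 and 3 without the library that stood apart, where 40.8% and 36.4% of all genes were lower. Bard1, the obligate partner of BRCA1 in the ligase, had 10.13, 10.19, 10.09 and 9.92 in S49 (Bcl-2) 48 h dex libraries, against 12.06, 12.15, 12.22 and 12.23 in controls. At 24 h it had 11.22, 11.14, 10.63 and 11.10 with dex, against 11.96, 12.03, 12.07 and 12.08 in controls. The groups were clear of each other at both times, and the 48 h dex libraries were all below the 24 h ones. Dex and control groups were clear of each other in 73.1% of all genes tested at 48 h and 53% at 24 h in this line. In S49 (Neo) cells the shares were 62.5% and 63.5%. Groups said to be apart, here and below, are to be read against these shares. At 48 h Bard1 had the lowest change of the list, at -2.08 ± 0.10 (SE, adjusted p = 2.07e-10) or 0.237 times the control, and at 24 h it was at -1.02 ± 0.10 (adjusted p = 9.51e-07). The response fell further by 1.06 between the times (adjusted p = 1.12e-04). In the Neo line Bard1 averaged 11.18 ± 0.15 (SD, n = 4) with dex and 11.92 ± 0.09 in controls at 48 h, and 11.34 ± 0.04 with dex and 11.79 ± 0.05 in controls at 24 h. It was lower there too, at -0.74 ± 0.09 (adjusted p = 3.01e-08) and -0.45 ± 0.09 (adjusted p = 8.67e-05).

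Brca1 itself went opposite ways in the lines. In the Bcl-2 line at 48 h it had 10.93, 10.98, 10.90 and 10.92 with dex, against 12.11, 12.17, 12.31 and 12.24 in controls. In Neo cells at 48 h it had 12.65, 12.72, 12.54 and 12.84 with dex, against 12.30, 12.33, 12.24 and 12.38 in controls. The dex libraries were thus below all controls in the Bcl-2 line and above all controls in the Neo line. The change was -1.27 ± 0.11 (adjusted p = 8.77e-08) in S49 (Bcl-2) cells and 0.37 ± 0.09 (adjusted p = 5.50e-04) in S49 (Neo) cells, and the responses differed between the lines by -1.65 ± 0.12 (adjusted p = 2.98e-11). At 24 h Brca1 was also higher in S49 (Neo) cells, where it averaged 12.63 ± 0.04 with dex and 12.24 ± 0.02 in controls (0.39 ± 0.09, adjusted p = 4.37e-04). In Bcl-2 cells at 24 h it had 12.09, 12.08, 11.43 and 11.96 with dex, against 12.05 to 12.08 in controls (-0.18 ± 0.11, adjusted p = 0.180). Without replicate 3 that difference was -0.02 ± 0.04 (adjusted p = 0.644).

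Brip1, the helicase that binds BRCA1 and is also a Fanconi gene, followed Bard1 rather than Brca1. It had 9.35, 9.39, 9.25 and 9.25 with dex and 10.84, 10.996, 11.01 and 11.11 in controls at 48 h in S49 (Bcl-2) cells (-1.68 ± 0.22, adjusted p = 7.68e-06). At 24 h the change was -0.68 ± 0.22 (adjusted p = 0.0148), and -0.36 (adjusted p = 4.09e-05) without replicate 3, which had 9.04 against 10.32 to 10.37 in the others. In S49 (Neo) cells it was lower at 48 h, at -0.45 ± 0.16 (adjusted p = 0.0221), a call lost when either of 2 of the 8 libraries was left out (adjusted p of 0.0543 and 0.0635). Uimc1, the ubiquitin reader that brings BRCA1 to damaged chromatin, and Brcc3, the deubiquitinase of the same complex, were called in neither line with all libraries in the fit, and had values of -0.12 and -0.32 in the Bcl-2 line after 48 h. Brcc3 was the gene most displaced in the library that stood apart, and without it Brcc3 was called lower at 48 h (-0.32, adjusted p = 6.31e-06) and 24 h (-0.21, adjusted p = 0.00102) in S49 (Bcl-2) cells and at 24 h (-0.12, adjusted p = 0.0295) in S49 (Neo) cells.

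**Figure D3:**
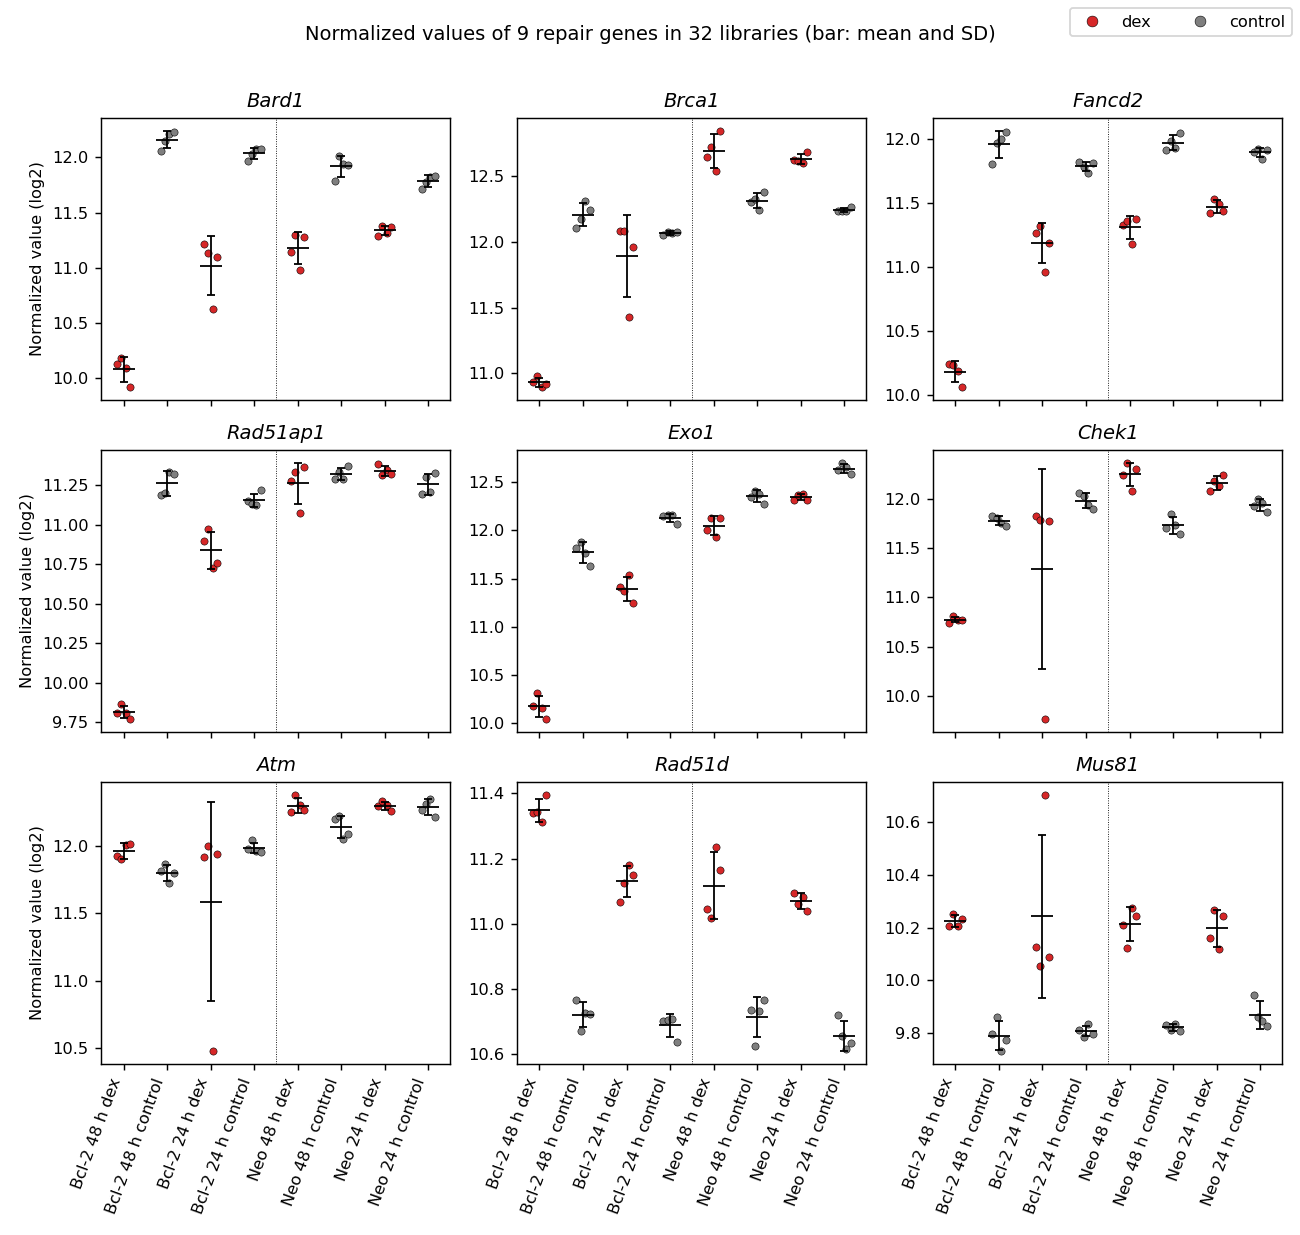
Normalized values (vertical axes, log2) of 9 repair genes in all 32 libraries, dex in red and control in grey, for S49 (Bcl-2) left and S49 (Neo) right of the dotted line. Points are libraries, and bars give the mean and SD of 4. Brca1 in S49 (Bcl-2) 48 h dex libraries sits at 10.90 to 10.98, and in S49 (Neo) 48 h dex libraries at 12.54 to 12.84, while Rad51d and Mus81 are higher with dex in every pair of groups.

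BRCA2 acts on resected DNA, PALB2 ties it to BRCA1, and Rad51b, Rad51c, Rad51d, Xrcc2, Xrcc3, Rad51ap1 and the RAD54 motors help in the invasion of the sister chromatid. In S49 (Bcl-2) cells 8 of these 10 genes were lower and 1 higher at 48 h, and 6 lower and 1 higher at 24 h, where 31.4% and 29% of all genes were lower. In the Neo line 3 were lower and 1 higher at 48 h, and 2 lower and 2 higher at 24 h, where 28% and 25.5% of all genes were lower. The Neo counts were thus near the background. Leaving out the library that stood apart, the lower counts were 9 and 8 in the Bcl-2 line and 4 and 3 in the Neo line. The higher counts did not move. In that fit 40.8% and 36.4% of all genes were lower in the Bcl-2 line, and 35.7% and 35% in the Neo line. Brca2 had 10.64, 10.52, 10.69 and 10.68 with dex at 48 h in S49 (Bcl-2) cells, against 11.64, 11.60, 11.62 and 11.72 in controls. The groups were apart, and the change was -1.01 ± 0.20 (adjusted p = 3.90e-04). At 24 h Brca2 had 11.30, 11.32, 10.09 and 11.24 with dex, against 11.43 to 11.55 in controls. The change of -0.50 ± 0.20 (adjusted p = 0.0432) was carried in large part by replicate 3, and it was -0.20 (adjusted p = 0.00117) without it. In Neo cells Brca2 averaged 11.47 ± 0.12 with dex and 11.71 ± 0.12 in controls at 48 h (-0.24 ± 0.15, adjusted p = 0.182), and 11.56 ± 0.05 with dex and 11.59 ± 0.07 in controls at 24 h (-0.03 ± 0.15, adjusted p = 0.876). Without the library that stood apart the 48 h change in S49 (Neo) cells was called (adjusted p = 2.13e-04).

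Rad51ap1, which stimulates strand invasion, had the smallest p of the list in the comparison of the lines at 48 h. It had 9.81, 9.86, 9.81 and 9.77 with dex at 48 h in S49 (Bcl-2) cells, against 11.19, 11.20, 11.34 and 11.32 in controls. In S49 (Neo) cells it had 11.28, 11.33, 11.08 and 11.36 with dex, against 11.29, 11.33, 11.29 and 11.37 in controls. The groups were more than a doubling apart in the Bcl-2 line and overlapped in the Neo line. The changes were -1.45 ± 0.06 (adjusted p = 2.91e-11) and -0.06 ± 0.06 (adjusted p = 0.399), and they differed by -1.39 ± 0.08 (adjusted p = 1.98e-13). At 24 h Rad51ap1 averaged 10.84 ± 0.12 with dex and 11.16 ± 0.04 in controls in S49 (Bcl-2) cells (-0.32 ± 0.06, adjusted p = 4.14e-04), and 11.34 ± 0.03 with dex and 11.26 ± 0.07 in controls in S49 (Neo) cells (0.09 ± 0.06, adjusted p = 0.216). Rad54l, a motor of strand exchange, had the same shape, with -1.13 ± 0.07 (adjusted p = 3.62e-09) in S49 (Bcl-2) and 0.08 ± 0.06 (adjusted p = 0.238) in S49 (Neo) cells at 48 h. After 24 h Rad54l in the Neo line was higher, at 0.20 ± 0.06 (adjusted p = 0.00562), a call that missed the threshold under quantile normalization and with library medians set equal (adjusted p of 0.0503 and 0.0890). Its exons overlap those of Lrrc41 over 15.4% of their length, and the counting is not stated to use strand.

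Of the other genes that help strand invasion Xrcc2 was lower at 48 h in S49 (Bcl-2) cells (-0.99 ± 0.06, adjusted p = 2.82e-09), where Rad51b was at -1.17, and Xrcc3 was at -0.40. Palb2 was at -0.88 at 48 h and -0.36 ± 0.06 (adjusted p = 1.26e-04) at 24 h, and Rad54b, a relative of Rad54l, was at -1.73 at 48 h and -0.89 ± 0.15 (adjusted p = 1.40e-04) at 24 h. In Neo cells Rad54b was lower at 48 h (-0.64 ± 0.11, adjusted p = 2.57e-05) and 24 h (-0.47 ± 0.11, adjusted p = 0.00109), as was Rad51b (-0.31 ± 0.07 and -0.25 ± 0.07, adjusted p = 1.87e-04 and 0.00238). Rad54b shares 35.8% of its exon length with Fsbp on the same strand, so its reads are uncertain. Rad51c was called in no dex comparison with all libraries in the fit, but without the one that stood apart it was lower at 48 h in S49 (Bcl-2) cells (-0.20, adjusted p = 0.00532).

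Rad51d, which acts in a complex with Rad51b, Rad51c and Xrcc2, was higher in every comparison with dex. In the Bcl-2 line it had 11.34, 11.34, 11.31 and 11.40 with dex at 48 h, against 10.77, 10.67, 10.73 and 10.72 in controls. In S49 (Neo) cells it had 11.05, 11.02, 11.24 and 11.17 with dex at 48 h, against 10.74, 10.63, 10.73 and 10.77 in controls. No dex library reached down to a control. The gain was 0.63 ± 0.04 (adjusted p = 9.23e-09) at 48 h and 0.44 ± 0.04 (adjusted p = 7.30e-07) at 24 h in S49 (Bcl-2) cells, and 0.40 ± 0.04 (adjusted p = 5.16e-09) and 0.41 ± 0.04 (adjusted p = 4.06e-09) in S49 (Neo) cells. The Bcl-2 line rose further with time, by 0.18 ± 0.06 (adjusted p = 0.0395), but that call was lost without any 1 of 12 of the 16 libraries (adjusted p of 0.0517 to 0.0830), with the replicate block (adjusted p = 0.0877) and with library medians set equal (adjusted p = 0.157). The difference between the lines at 48 h was 0.23 ± 0.06 (adjusted p = 0.00384).

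The Fanconi core complex carries the ubiquitin ligase of the pathway, and all 8 of its genes listed here were lower at 48 h in S49 (Bcl-2) cells, with a median of -0.72, and 6 of 8 at 24 h, with a median of -0.37. In the Neo line 6 of 8 were lower at 48 h, with a median of -0.35, and 4 of 8 at 24 h, with a median of -0.30. Over all genes 31.4% and 29% were lower in the Bcl-2 line at 48 h and 24 h, and 28% and 25.5% in the Neo line. The counts of lower core genes without the library that stood apart were 8 and 7 in the Bcl-2 line, and 7 and 6 in the Neo line. In that fit 40.8% and 36.4% of all genes were lower in the Bcl-2 line, and 35.7% and 35% in the Neo line. Fanca, the subunit most often mutated in Fanconi anemia, had 9.94, 9.93, 9.77 and 9.59 with dex at 48 h in S49 (Bcl-2) cells, against 11.26, 11.29, 11.19 and 11.22 in controls. In Neo cells it had 11.03, 11.02, 11.02 and 11.07 with dex, against 11.46, 11.36, 11.36 and 11.37 in controls. Both pairs of groups were apart, by -1.43 ± 0.11 (adjusted p = 3.30e-08) in S49 (Bcl-2) and -0.35 ± 0.08 (adjusted p = 7.05e-04) in S49 (Neo) cells. At 24 h Fanca averaged 11.01 ± 0.28 with dex and 11.37 ± 0.03 in controls in S49 (Bcl-2) cells (-0.37 ± 0.11, adjusted p = 0.0121), where replicate 3 was at 11.40 among 10.74 to 10.94, and 11.38 ± 0.03 with dex and 11.54 ± 0.02 in controls in S49 (Neo) cells (-0.16 ± 0.08, adjusted p = 0.110).

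Other core subunits were lower in S49 (Bcl-2) cells at 48 h by smaller margins, Fancg at -0.63 ± 0.07 (adjusted p = 1.79e-06) and Fancc at -0.81 ± 0.10 (adjusted p = 3.95e-06). Fancb, the partner of the ligase subunit, was at -1.63 at 48 h and -1.23 ± 0.30 (adjusted p = 0.00247) at 24 h, and the 24 h value was -0.78 without replicate 3. Fancl, the ligase subunit itself, was lower at 24 h in S49 (Bcl-2) cells (-0.62 ± 0.16, adjusted p = 0.00409, and -0.38 without replicate 3), and in S49 (Neo) cells at 48 h (-0.45 ± 0.12, adjusted p = 0.00295) and 24 h (-0.39 ± 0.12, adjusted p = 0.0101). Fance, which helps to bring FANCD2 to the complex, had its lower values in S49 (Neo) cells. It was at -0.46 ± 0.07 there at both times (adjusted p = 3.53e-06 at 48 h and 4.19e-06 at 24 h), and at -0.26 at 48 h and -0.37 ± 0.09 (adjusted p = 0.00267) at 24 h in S49 (Bcl-2) cells. The difference between the lines at 48 h was 0.20 ± 0.10 (adjusted p = 0.126), which does not pass the test. Fancf was lower at 24 h in S49 (Neo) cells (-0.45 ± 0.13, adjusted p = 0.00394) and at -0.51, -0.35 and -0.35 in the other 3 comparisons.

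Fancd2, the protein that the core complex marks with ubiquitin, had 10.24, 10.24, 10.19 and 10.06 with dex at 48 h in S49 (Bcl-2) cells, against 11.81, 11.97, 12.001 and 12.06 in controls. At 24 h it had 11.27, 11.32, 10.97 and 11.19 with dex, against 11.82, 11.78, 11.74 and 11.82 in controls. Dex libraries were below every control at both times, with changes of -1.78 ± 0.08 (adjusted p = 3.42e-11) and -0.60 ± 0.08 (adjusted p = 8.20e-06), and the response deepened by -1.17 ± 0.11 (adjusted p = 4.21e-06). Fancd2 in S49 (Neo) cells averaged 11.31 ± 0.09 with dex and 11.97 ± 0.06 in controls at 48 h (-0.66 ± 0.06, adjusted p = 3.50e-10), and 11.47 ± 0.05 with dex and 11.90 ± 0.03 in controls at 24 h (-0.43 ± 0.06, adjusted p = 1.35e-06). The lines differed at 48 h by -1.12 ± 0.09 (adjusted p = 7.89e-11) but not by the test at 24 h (-0.18 ± 0.09, adjusted p = 0.154).

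Fanci, its partner, was lower at 48 h in S49 (Bcl-2) cells (-0.69 ± 0.08, adjusted p = 2.20e-06) and higher at 24 h in S49 (Neo) cells (0.23 ± 0.06, adjusted p = 0.00286), although 16% of its exon length overlaps Polg. Slx4, the scaffold that holds the crosslink nucleases, was higher at 24 h in S49 (Bcl-2) cells (0.21 ± 0.08, adjusted p = 0.0295). That call was lost with the replicate block (adjusted p = 0.0729), which was used because same-numbered libraries deviated together here. It was also lost without control replicate 1 or 3 (adjusted p of 0.0563 and 0.0880). The change was 0.13 (adjusted p = 0.0405) without dex replicate 3.

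The MRE11, RAD50 and NBN complex opens the ends and EXO1 extends the resection. In Bcl-2 cells 4 of these 5 genes were lower at both times, Rbbp8 (CtIP, which starts resection with MRE11) being the exception at -0.53 (adjusted p = 0.0529) at 48 h and -0.22 (adjusted p = 0.429) at 24 h. Over all genes 31.4% and 29% were lower there at 48 h and 24 h. With the library that stood apart left out, 5 were lower at 48 h and 4 at 24 h. In that fit 40.8% and 36.4% of all genes were lower. Without the library that stood apart Rbbp8 was called lower at 48 h (adjusted p = 1.76e-07), and in S49 (Neo) cells it was called higher at 24 h (0.17, adjusted p = 0.00388). Exo1 had 10.18, 10.31, 10.16 and 10.04 with dex at 48 h, against 11.82, 11.88, 11.76 and 11.63 in controls. At 24 h it had 11.41, 11.38, 11.54 and 11.24 with dex, against 12.15, 12.16, 12.16 and 12.07 in controls. Each dex library was below every control of its time, by -1.60 ± 0.07 (adjusted p = 7.39e-11) and -0.74 ± 0.07 (adjusted p = 6.62e-07) on average. Exo1 in the Neo line averaged 12.05 ± 0.10 with dex and 12.35 ± 0.06 in controls at 48 h, and 12.35 ± 0.03 with dex and 12.64 ± 0.05 in controls at 24 h. The change was -0.30 ± 0.06 at both times (adjusted p = 9.26e-05 and 1.63e-04), and the lines differed by -1.30 ± 0.09 (adjusted p = 2.95e-12) at 48 h and -0.44 ± 0.09 (adjusted p = 5.68e-04) at 24 h.

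The nuclease Mre11a was at -0.77 ± 0.06 (adjusted p = 3.95e-08) at 48 h and -0.53 ± 0.06 (adjusted p = 3.22e-06) at 24 h in S49 (Bcl-2) cells, and at -0.20 ± 0.05 (adjusted p = 5.70e-04) and -0.29 ± 0.05 (adjusted p = 7.40e-06) in S49 (Neo) cells. Nbn, the subunit that recruits ATM, was at -0.77 ± 0.15 (adjusted p = 3.46e-04) at 48 h and -0.75 ± 0.15 (adjusted p = 5.46e-04) at 24 h in S49 (Bcl-2) cells. Rad50, the tether of the complex, was the fourth gene called in opposite directions beside Brca1, Rad54l and Fanci, lower in S49 (Bcl-2) cells at 48 h (-0.28) and higher in S49 (Neo) cells at 48 h (0.22 ± 0.07, adjusted p = 0.00766). Its responses differed by -0.50 (adjusted p = 1.58e-04). A complex of 3 proteins thus had 3 subunits lower in the Bcl-2 line, of which 1 was higher in the Neo line at 48 h.

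Blm, the helicase of Bloom syndrome, and its partners Rmi1 and Rmi2 take joined molecules apart without crossing over, and Wrn is a related helicase. Rmi2 had 8.15, 8.28, 8.17 and 8.10 with dex at 48 h in S49 (Bcl-2) cells, against 8.97, 9.15, 9.19 and 9.28 in controls. In Neo cells it had 9.38, 9.34, 9.32 and 9.33 with dex, against 9.76, 9.66, 9.71 and 9.65 in controls. Both lines kept the groups apart at 48 h, with -0.98 ± 0.09 (adjusted p = 1.31e-07) and -0.35 ± 0.07 (adjusted p = 5.83e-05). At 24 h neither did: Rmi2 averaged 9.06 ± 0.18 with dex and 9.08 ± 0.03 in controls in S49 (Bcl-2) cells, and 9.58 ± 0.07 with dex and 9.58 ± 0.04 in controls in S49 (Neo) cells. Rmi2 and Fancg were the 2 genes whose response in S49 (Neo) cells was called lower at 48 h than at 24 h (-0.34 ± 0.09 and -0.29 ± 0.08, adjusted p = 0.0108 and 0.0144), and neither was called under quantile normalization (adjusted p = 0.207 and 0.0615). The Fancg call of that comparison was also lost with library medians set equal (adjusted p = 0.0736). Over all genes 19.2% were called in that comparison (10.5% lower and 8.72% higher), and 11 genes of the list were lower and 4 higher in it without the library that stood apart (39.8% of all genes). Blm was lower in S49 (Bcl-2) cells, at -1.17 ± 0.20 (adjusted p = 1.00e-04) at 48 h and -0.74 ± 0.20 (adjusted p = 0.00523) at 24 h, and the 24 h value was -0.44 without replicate 3. Rmi1 and Wrn were not called, with 0.14 and -0.29 after 48 h in the Bcl-2 line.

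The subunits of the structure-specific nuclease that cuts joined molecules, MUS81 and EME1, went opposite ways. Eme1 had 9.28, 9.35, 9.24 and 9.08 with dex at 48 h in S49 (Bcl-2) cells, against 10.38, 10.52, 10.49 and 10.43 in controls. Mus81 had 10.21, 10.25, 10.21 and 10.23 with dex in the same libraries, against 9.80, 9.86, 9.73 and 9.77 in controls. The catalytic subunit was above all controls where its partner was below all of them, with 0.43 ± 0.11 (adjusted p = 0.00267) for Mus81 and -1.22 ± 0.11 (adjusted p = 1.00e-07) for Eme1. Mus81 in S49 (Neo) cells averaged 10.21 ± 0.06 with dex and 9.82 ± 0.01 in controls at 48 h (0.39 ± 0.08, adjusted p = 1.96e-04), and 10.20 ± 0.07 with dex and 9.87 ± 0.05 in controls at 24 h (0.33 ± 0.08, adjusted p = 0.00146). Eme1 averaged 10.21 ± 0.06 with dex and 10.39 ± 0.03 in controls at 48 h in S49 (Neo) cells (-0.18 ± 0.08, adjusted p = 0.0673), and 10.35 ± 0.01 with dex and 10.43 ± 0.08 in controls at 24 h (-0.08 ± 0.08, adjusted p = 0.415). Without the library that stood apart Eme1 was called lower there at 48 h (adjusted p = 0.00198). At 24 h in S49 (Bcl-2) cells Mus81 was higher by 0.44 ± 0.11 (adjusted p = 0.00305), or 0.28 without replicate 3, and Eme1 averaged 10.33 ± 0.28 with dex and 10.46 ± 0.04 in controls (-0.13 ± 0.11, adjusted p = 0.304), with a call of lower without replicate 3 (-0.26, adjusted p = 0.00103).

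The checkpoint kinases sense breaks (ATM) and single strands (ATR with its partner ATRIP) and pass the signal to CHK2 and CHK1. The sensors Atm and Atr were called in none of the dex comparisons. Atm had 11.93, 11.90, 12.004 and 12.01 with dex at 48 h in S49 (Bcl-2) cells, against 11.81, 11.86, 11.72 and 11.80 in controls. The dex libraries were all above the controls there, yet the change of 0.16 ± 0.24 (adjusted p = 0.578) was not called. The fit included a value of 10.48 in the library that stood apart, beside 11.92, 11.94 and 11.997 in the others of its group. Without that library it was called higher (0.16, adjusted p = 7.82e-04), and so it was in S49 (Neo) cells at 48 h (0.16, adjusted p = 6.46e-04), where Atm averaged 12.30 ± 0.06 with dex and 12.14 ± 0.08 in controls. At 24 h Atm averaged 11.58 ± 0.74 with dex and 11.98 ± 0.04 in controls in S49 (Bcl-2) cells (-0.40 ± 0.24, adjusted p = 0.168), and 12.29 ± 0.03 with dex and 12.28 ± 0.06 in controls in S49 (Neo) cells (0.01 ± 0.18, adjusted p = 0.967). Atr was at -0.31 ± 0.37 (adjusted p = 0.478) in S49 (Bcl-2) cells and -0.33 ± 0.27 (adjusted p = 0.313) in S49 (Neo) cells at 48 h, and both were called lower without that library (adjusted p = 4.42e-06 and 8.00e-08). Atrip was higher in S49 (Neo) cells (0.15 ± 0.06 at 48 h and 0.19 ± 0.06 at 24 h, adjusted p = 0.0260 and 0.00730), but neither was called under quantile normalization (adjusted p = 0.138 and 0.139) or with library medians set equal (adjusted p = 0.198 and 0.129). The 48 h call was also lost without any 1 of 4 of the 8 libraries (adjusted p of 0.0635 to 0.0720), and 16% of its exon length overlaps Trex1.

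Chek1, the kinase that holds cells with stalled forks, had 10.74, 10.81, 10.77 and 10.77 with dex at 48 h in S49 (Bcl-2) cells, against 11.82, 11.81, 11.76 and 11.72 in controls. After 48 h in the Neo line it had 12.25, 12.36, 12.09 and 12.31 with dex, against 11.70, 11.85, 11.74 and 11.65 in controls. It was below every control in the one line and above every control in the other, like Brca1. The change was -1.005 ± 0.33 (adjusted p = 0.0151) in S49 (Bcl-2) cells and 0.52 ± 0.25 (adjusted p = 0.0764) in S49 (Neo) cells, and the lines differed by -1.52 ± 0.35 (adjusted p = 8.52e-04). The fit included the 9.77 of the library that stood apart, and without it the S49 (Neo) gain was called (0.52, adjusted p = 1.48e-10). At 24 h Chek1 had 11.83, 11.79, 9.77 and 11.77 with dex in S49 (Bcl-2) cells, against 12.06, 12.03, 11.94 and 11.90 in controls (-0.69 ± 0.33, adjusted p = 0.0839, and -0.18, adjusted p = 7.08e-04, without replicate 3), while S49 (Neo) cells averaged 12.16 ± 0.07 with dex and 11.94 ± 0.06 in controls (0.22 ± 0.25, adjusted p = 0.490, and 2.57e-04 without the library that stood apart).

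Chek2, the effector of ATM, had 9.38, 9.43, 9.27 and 9.24 with dex at 48 h in S49 (Bcl-2) cells, against 10.03, 9.94, 9.88 and 9.98 in controls (-0.63 ± 0.10, adjusted p = 4.68e-05). In Neo cells it averaged 9.91 ± 0.04 with dex and 10.09 ± 0.03 in controls at 48 h. That change of -0.18 ± 0.07 (adjusted p = 0.0353) was lost without any 1 of 6 of the 8 libraries (adjusted p of 0.0546 to 0.0762). At 24 h Chek2 averaged 9.76 ± 0.24 with dex and 10.02 ± 0.09 in controls in S49 (Bcl-2) cells (-0.26 ± 0.10, adjusted p = 0.0334), and this was -0.14 without dex replicate 3 and was lost without control replicate 1 or 2 (adjusted p of 0.0781 and 0.0934). In S49 (Neo) cells at 24 h it averaged 10.02 ± 0.02 with dex and 10.07 ± 0.05 in controls (-0.05 ± 0.07, adjusted p = 0.578).

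The proteins that spread the damage signal on chromatin had a median change of -0.05 in S49 (Bcl-2) cells at 48 h. Mdc1, the reader of phosphorylated H2AX, had 12.14, 12.15, 12.18 and 12.16 with dex at 48 h in S49 (Bcl-2) cells, against 12.59, 12.61, 12.63 and 12.67 in controls (-0.47 ± 0.04, adjusted p = 4.90e-08). It averaged 12.45 ± 0.04 with dex and 12.66 ± 0.03 in controls at 24 h (-0.21 ± 0.04, adjusted p = 3.05e-04). In the Neo line it averaged 12.61 ± 0.04 with dex and 12.80 ± 0.03 in controls at 48 h (-0.20 ± 0.03, adjusted p = 5.74e-06), and 12.64 ± 0.05 with dex and 12.79 ± 0.03 in controls at 24 h (-0.16 ± 0.03, adjusted p = 1.43e-04). These were small shifts, with the 4 libraries of a group close together and every dex group clear of its controls. H2afx, the histone variant itself, was lower at 48 h in S49 (Bcl-2) cells (-0.47 ± 0.14, adjusted p = 0.00975), and Rnf8, the first ubiquitin ligase of the cascade, was lower there at 24 h (-0.20 ± 0.07, adjusted p = 0.0262), a call lost without any 1 of 5 of the 8 libraries (adjusted p of 0.0551 to 0.0674).

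Trp53bp1 (53BP1), which shields ends from resection and so favours end joining over recombination, was the reverse of the list in the comparison of lines. In Neo cells it had 11.12, 11.09, 11.26 and 11.15 with dex at 48 h, against 11.46, 11.42, 11.37 and 11.43 in controls (-0.27 ± 0.04, adjusted p = 1.43e-06). In S49 (Bcl-2) cells it had 11.55, 11.53, 11.63 and 11.66 with dex, against 11.57, 11.57, 11.59 and 11.58 in controls (0.02 ± 0.05, adjusted p = 0.757). It was lower in the Neo line, also at 24 h (-0.23 ± 0.04, adjusted p = 1.28e-05), and the groups overlapped in the Bcl-2 line. Its exons overlap those of Tubgcp4 over 15% of their length.

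The responses of the lines were then compared directly. At 48 h the dex response was lower in S49 (Bcl-2) than in S49 (Neo) cells for 30 of 47 genes, higher for 2 (Trp53bp1 at 0.28 ± 0.06, adjusted p = 1.64e-04, and Rad51d) and not called for 15, with a median difference of -0.50, against -0.005 over all genes. Over all genes 40.8% were called (20.9% lower and 19.9% higher). Beside Rad51ap1 and Exo1, the smallest p-values belonged to Rad54l (-1.21 ± 0.08, adjusted p = 6.12e-12) and Xrcc2 (-0.998 ± 0.07, adjusted p = 1.06e-11). At 24 h 10 genes were lower and 0 higher (median -0.25), where 19.5% of all genes were called (8.51% lower and 11% higher). The smallest p-values belonged to Exo1, Rad51ap1 (-0.40 ± 0.08, adjusted p = 7.09e-04), Brca1 (-0.57 ± 0.12, adjusted p = 0.00177) and Bard1 (-0.57 ± 0.12, adjusted p = 0.00188). Without the library that stood apart 37 were lower and 3 higher at 48 h (59.5% of all genes called), and after 24 h 18 were lower and 1 higher (median -0.10, 35.9% of all genes called).

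**Figure D4:**
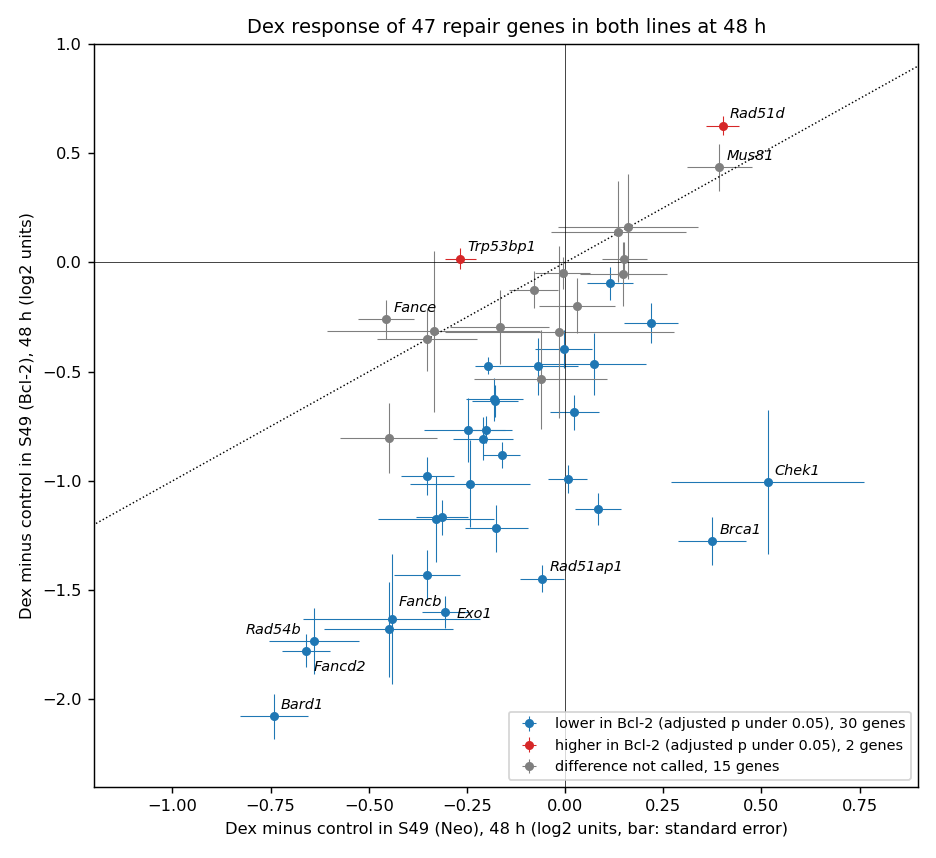
Dex minus control at 48 h in S49 (Bcl-2) cells (vertical axis, log2 units) against the same in S49 (Neo) cells (horizontal axis, log2 units) for 47 repair genes, with standard errors as bars and the dotted line at equal response. Most points lie below the line, 30 of them with a called difference, and Brca1 (-1.27 against 0.37) and Chek1 (-1.005 against 0.52) lie at lower right, where the signs are opposite.

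In the Bcl-2 line the smallest p-values of the 48 h minus 24 h difference belonged to Fancd2, Rad51ap1 (-1.13 ± 0.09, adjusted p = 1.11e-06), Rad54l (-1.01 ± 0.10, adjusted p = 1.07e-05) and Exo1 (-0.86 ± 0.10, adjusted p = 3.73e-05). Against the 19 lower genes of the Bcl-2 line stood 2 in the Neo line, but the difference between these differences was not tested. Several genes that were not called at 24 h in S49 (Bcl-2) cells with all libraries in the fit (Brca1, Rad54l, Rmi2 and Eme1) were lower by about 1 or more at 48 h, at -1.27, -1.13, -0.98 and -1.22. The 24 h dex replicate 3 lay above the rest of its group for Rad54l (0.29), Rmi2 (0.23) and Eme1 (0.53), and below it for Brca1 (-0.61). Eme1 was called lower at 24 h as well without dex replicate 3 (-0.26, adjusted p = 0.00103).

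Windows with E2F letters and windows without were set side by side. At 48 h in S49 (Bcl-2) cells 11 of the 14 genes with the letters were lower, with a median of -0.82. Of the 22 genes without them 13 were lower and 1 higher (median -0.37). The 11 genes with no window in the table included 8 lower and 1 higher (median -0.77). Rad51c, Rnf8 and Rnf168 hold the letters and were not called there, at -0.20, -0.05 and -0.05. In the Bcl-2 line after 24 h 8 genes with the letters were lower (median -0.28), and of those without them 9 were lower and 2 higher (median -0.37). At 48 h in S49 (Neo) cells 5 genes with the letters were lower and 1 higher (median -0.12), and of those without them 9 were lower and 2 higher (median -0.17). Leaving out the library that stood apart, 12 genes with the letters were lower at 48 h in the Bcl-2 line, and of those without them 16 were lower and 3 higher. After 24 h the same fit had 10 lower with the letters (median -0.19), and 13 lower and 3 higher without them (median -0.20). In that fit 40.8% of all genes were lower at 48 h and 36.4% at 24 h in the Bcl-2 line. With all libraries these shares were 31.4% and 29%, and 28% in the Neo line at 48 h. The printed windows were chosen with their results known.

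Neighbouring gene lists were described in the same way, beside the 62.4% of all genes called at 48 h in S49 (Bcl-2) cells and the 55.3% in S49 (Neo) cells. A list of 48 further recombination and Fanconi genes had 28 lower and 8 higher at 48 h in S49 (Bcl-2) cells (median -0.47), with Clspn at -1.64 ± 0.06 (adjusted p = 4.20e-12), the adaptor of CHK1. The 13 genes of non-homologous end joining had 3 lower and 3 higher (median -0.06), with Xrcc6 (Ku70) at 1.38 ± 0.07 (adjusted p = 1.82e-10) and Polm at 1.01 ± 0.09 (adjusted p = 9.11e-08), both higher. Of the 8 genes of polymerase theta end joining and single-strand breaks 7 were lower (median -0.54), led by Polq (-1.22 ± 0.11, adjusted p = 1.81e-07) and Parp1 (-0.85 ± 0.09, adjusted p = 1.41e-06). Of 20 excision and mismatch repair genes 9 were lower and 6 higher (median -0.12), with Ercc5 at 1.29 ± 0.07 (adjusted p = 8.82e-10). Leaving out the library that stood apart, the further recombination genes had 38 lower and 8 higher, and end joining 5 lower and 5 higher. Polymerase theta end joining then had 7 lower, and excision and mismatch repair 11 lower and 7 higher. In that fit 79.8% of all genes were called, with 40.8% lower.

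The lists of the dividing cell moved furthest. Of 39 DNA replication genes 38 were lower at 48 h in S49 (Bcl-2) cells (median -1.36), led by Pole (-1.43 ± 0.04, adjusted p = 1.05e-12) and Mcm6 (-1.59 ± 0.05, adjusted p = 2.51e-12), and all 29 mitosis genes were lower (median -1.35), led by Cdk1 (-1.87 ± 0.07, adjusted p = 1.42e-11) and Birc5 (-1.30 ± 0.07, adjusted p = 3.46e-10). In S49 (Neo) cells at 48 h 27 replication genes were lower and 1 higher (median -0.29) and 18 mitosis genes were lower (median -0.25), while end joining had 3 lower and 5 higher (median 0.15) and the 48 further recombination genes 18 lower and 11 higher (median -0.15). Without that library, all 39 replication genes were lower in the Bcl-2 line, and in the Neo line 31 were lower and 2 higher. There 25 mitosis genes were lower, end joining had 4 lower and 6 higher, and the further recombination genes 24 lower and 12 higher. In that fit 79.8% of all genes were called in the Bcl-2 line and 70.8% in the Neo line. The part of cell division in the repair gene values was not tested. The median of the 47 genes lay between those of replication and of end joining in each of the 4 dex comparisons, as the plot of list medians shows.

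**Figure D5:**
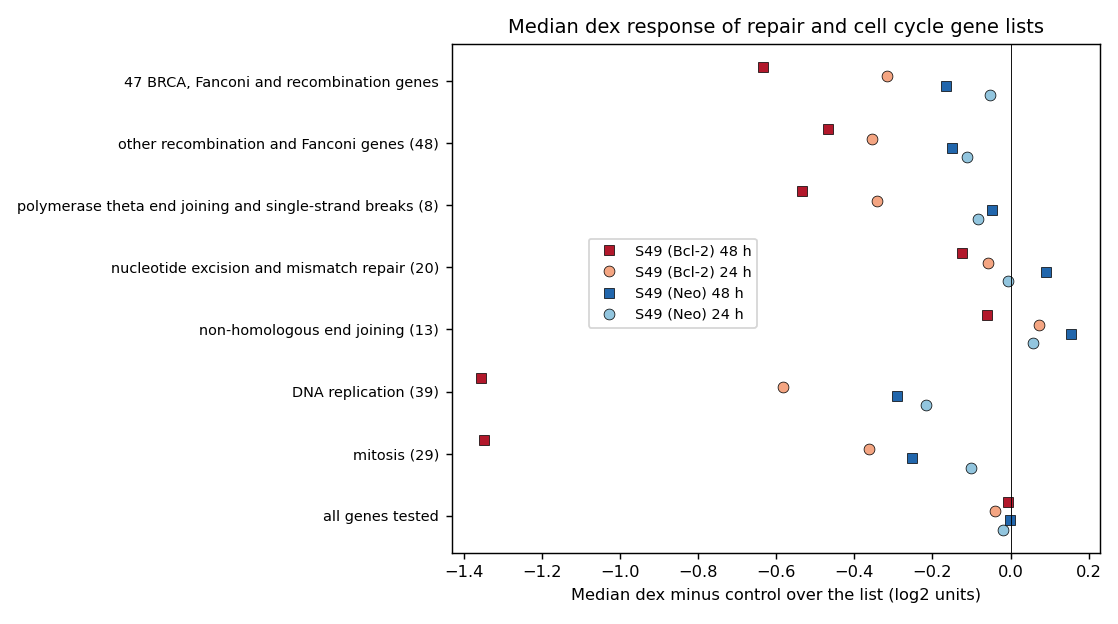
Median dex minus control (horizontal axis, log2 units) of 7 gene lists and of all genes tested (rows, number of genes tested in brackets), for S49 (Bcl-2) in red and S49 (Neo) in blue at 48 h (squares) and 24 h (circles). In Bcl-2 cells at 48 h the 47 repair genes stand at -0.63, with replication at -1.36, mitosis at -1.35 and non-homologous end joining at -0.06.

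Control cells of the lines were compared as well. Without dex 7 genes were lower and 3 higher in S49 (Bcl-2) than in S49 (Neo) at 24 h (26.9% of all genes called, 14% lower and 12.9% higher), and 8 lower and 3 higher at 48 h (25.9% called, 14.2% lower and 11.7% higher). Same-numbered libraries tended to deviate together here, and the replicate block was fitted as well. With the block 21 were lower and 8 higher at 24 h, and 18 lower and 6 higher at 48 h. The share of all genes called with the block was not counted, so these counts have no background. Without the library that stood apart, whose spread the fit shares, 15 were lower and 7 higher at 24 h (43.4% of all genes called) and 15 lower and 5 higher at 48 h (42.5% called). Slx4 had 10.26, 10.31, 10.48 and 10.36 in S49 (Bcl-2) controls at 48 h, against 11.23, 11.17, 11.15 and 11.27 in S49 (Neo) controls. At 24 h it had 10.27, 10.31, 10.17 and 10.32, against 11.21, 11.16, 11.13 and 11.21. It had the smallest p of the list between control lines, with -0.86 ± 0.06 (adjusted p = 1.82e-12) at 48 h and -0.91 ± 0.06 (adjusted p = 4.67e-13) at 24 h, against a dex response that was called in only 1 of 4 comparisons.

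Exo1 (-0.58 ± 0.06 at 48 h and -0.51 ± 0.06 at 24 h, adjusted p = 9.92e-09 and 1.05e-07) and Rmi2 (-0.55 ± 0.07 and -0.51 ± 0.07, adjusted p = 2.20e-07 and 7.72e-07) were also lower in S49 (Bcl-2) controls. Mdc1 was lower at 48 h (-0.18 ± 0.03, adjusted p = 8.46e-05) and Fanci at 24 h (-0.37 ± 0.06, adjusted p = 2.74e-05). Higher in S49 (Bcl-2) controls were Trp53bp1 (0.16 ± 0.04 at 48 h and 0.19 ± 0.04 at 24 h, adjusted p = 0.00309 and 4.81e-04), Uimc1 (0.20 ± 0.06 and 0.26 ± 0.06, adjusted p = 0.0159 and 0.00165) and Bard1 (0.24 ± 0.09 and 0.25 ± 0.09, adjusted p = 0.0401 and 0.0356). The Bard1 calls were lost without any 1 of 6 of the 8 libraries (adjusted p of 0.0648 to 0.140 at 48 h and 0.0515 to 0.0983 at 24 h), and the Uimc1 call at 48 h without either of 2 (adjusted p of 0.0538 and 0.0564). Exo1 and Rmi2 thus were lower in the Bcl-2 line without dex, and the dex response at 48 h was lower there as well.

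Controls at 48 h and 24 h were compared as well. Between 48 h and 24 h controls 3 were lower and 2 higher in S49 (Bcl-2) cells (39.4% of all genes called, 18% lower and 21.4% higher), and 3 lower and 3 higher in S49 (Neo) cells (46.8% called, 21.7% lower and 25.1% higher). In the Neo line the split was 8 lower and 2 higher under quantile normalization. The share of all genes called under that scaling was not counted. Leaving out the library that stood apart, 12 were lower and 11 higher in S49 (Bcl-2) controls (65.3% of all genes called), and 12 lower and 8 higher in S49 (Neo) controls (64.7% called). In S49 (Bcl-2) controls Exo1 averaged 11.77 ± 0.11 at 48 h and 12.13 ± 0.04 at 24 h, and 12.35 ± 0.06 at 48 h and 12.64 ± 0.05 at 24 h in S49 (Neo) controls, and was lower in both (-0.36 ± 0.07 and -0.29 ± 0.06, adjusted p = 0.00135 and 2.89e-04). Rad51c was higher at 48 h in both lines (0.42 ± 0.13 and 0.34 ± 0.10, adjusted p = 0.0177 and 0.00475), although with all libraries in the fit it was called in no dex comparison. The S49 (Bcl-2) call was lost without 48 h control replicate 4 (0.37, adjusted p = 0.0609). Fancg was higher at 48 h (0.22 ± 0.07 and 0.25 ± 0.06, adjusted p = 0.0223 and 9.25e-04) and Mre11a lower (-0.18 ± 0.06 and -0.21 ± 0.05, adjusted p = 0.0328 and 4.78e-04). In S49 (Bcl-2) controls Rnf8 was lower as well (-0.26 ± 0.07, adjusted p = 0.0115), and in S49 (Neo) controls H2afx was higher (0.37 ± 0.13, adjusted p = 0.0250) and Xrcc2 lower (-0.12 ± 0.05, adjusted p = 0.0467). Of these the Fancg and Mre11a calls in S49 (Bcl-2) and the H2afx and Xrcc2 calls in S49 (Neo) controls were lost when single libraries were left out (adjusted p up to 0.0744, 0.0928, 0.0939 and 0.130).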

How the data were processed

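RNA of 32 libraries of S49 (Bcl-2) and S49 (Neo) cells (8 groups of 4) had been sequenced, aligned to mm10 with STAR, counted per gene with featureCounts and normalized with DESeq2 by the authors. The deposited table holds log2 normalized values of 24538 genes, from -2.38 to 20.15. The transform was not stated, and low genes often share a narrow negative band, so differences of low genes are pulled towards 0. Some genes have a mean of 0 (Ms4a1 and Blk), and 4872 genes have a single value in all libraries. The table gives no counts and the study's methods give reads per sample only as a range, so the depth behind each value is not known. Whether counting used strand is not given in the sources used here, and 26 symbols stand as dates in the table. No count model was applied.

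Dex minus control, the differences of that response between times and between lines, and the control comparisons were tested (12 comparisons) with limma 3.58.1 (limma-trend, R 4.3.3), 1 mean per group, two-sided, Benjamini-Hochberg adjusted over all genes tested, with calls at 0.05. S49 (Bcl-2) comparisons within the line used its 16 libraries (11592 genes), and the others used all 32 (11562 genes). Genes whose mean fell under 3.459 (the log2 of 10 plus a pseudocount of 1) were left out. The fit was also run on simulated normal values, with no library standing apart and no link between replicates. That run does not bear on either feature of these data. Figures and promoter searches used Python 3.11.15, pandas 2.3.3, numpy 2.4.6 and matplotlib 3.10.9. No 2 libraries held identical values.

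The 47 genes and the other gene lists were chosen with earlier results of these data known. Named genes were, in each dex comparison and role, the up to 3 called genes of smallest p and any gene called against its role. In the other comparisons they were the up to 4 called genes of smallest p in each direction, and in other lists up to 2 genes, of which 2 are not reported here. Values in every group were given for the gene of smallest p in each of the 9 roles at 48 h in S49 (Bcl-2) cells and for Brca1, Brca2, Fancd2, Atm and Chek1. Other genes and values named were chosen after they were seen.

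What a replicate number marks is not stated. Same-numbered libraries deviated together, with every correlation of deviations from the group means over 0.1, between dex and control of S49 (Bcl-2) at 24 h (0.198 to 0.225) and between the lines in controls at 24 h (0.101 to 0.662) and 48 h (0.147 to 0.718). In these pairs of groups the best match of a library had its own number for 4 of 4, 3 of 4 and 2 of 4 libraries. Alternatives were other filters, thresholds, scalings and fits, the replicate block, and each library left out in turn.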

Additional observations from a re-analysis of the deposited data

Results flagged for a closer look

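In 11 of 104 groups of 4 libraries examined among the genes with values in every group, and in 33 of 376 over all 47 genes, a single library lay far from the other 3. Chance gives about 1 in 20. The library S49 (Bcl-2) 24 h dex replicate 3 was low for Chek1 (9.765), Atm (10.48), Brca2 (10.09) and Chek2 (9.404, against 9.857 to 9.888 in the other 3). In S49 (Bcl-2) 24 h controls Exo1 had 12.07 in replicate 4, against 12.15 to 12.16, and Eme1 had 10.4 in replicate 1. Fanca had 11.07 in S49 (Neo) 48 h dex replicate 4, against 11.02 to 11.03, and 11.46 in S49 (Neo) 48 h control replicate 1, against 11.36 to 11.37. Brca2 had 11.49 in S49 (Neo) 24 h control replicate 4, against 11.61 to 11.64, and 11.54 in S49 (Neo) 48 h control replicate 3, against 11.75 to 11.79. Brca1 had 12.26 in S49 (Neo) 24 h control replicate 4.

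The dex response differed between times or lines by the test of the difference for the genes of smallest p in each comparison. Between 48 h and 24 h in S49 (Bcl-2) cells the difference was -1.175 for Fancd2, -1.131 for Rad51ap1, -1.011 for Rad54l, -0.8628 for Exo1 and 0.1849 for Rad51d, and in S49 (Neo) cells it was -0.3446 for Rmi2 and -0.2891 for Fancg. Of these calls that of Rad51d was lost without any 1 of 12 of the 16 libraries. The Rmi2 and Fancg calls were lost under quantile normalization, and that of Fancg also with library medians set equal. Between S49 (Bcl-2) and S49 (Neo) cells at 48 h it was -1.389 for Rad51ap1, -1.296 for Exo1, -1.212 for Rad54l, -0.9981 for Xrcc2, 0.2846 for Trp53bp1 and 0.2257 for Rad51d. At 24 h it was -0.5657 for Brca1, -0.5651 for Bard1, -0.4426 for Exo1 and -0.4015 for Rad51ap1.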

How the results depend on the processing

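Counts below are of the 47 genes called in either direction. Leaving out S49 (Bcl-2) 24 h dex replicate 3 gave 30 at 24 h and 36 at 48 h for dex in S49 (Neo) cells, 39 and 15 for the 48 h minus 24 h response in S49 (Bcl-2) and S49 (Neo) cells, 19 for the response of the lines at 24 h, 22 and 20 for the control lines at 24 h and 48 h, and 23 and 20 for culture time in S49 (Bcl-2) and S49 (Neo) controls. Leaving out 1 library of the compared groups gave 21 to 34 and 33 to 34 for dex in S49 (Bcl-2) cells at 24 h and 48 h, 17 to 19 and 19 to 22 in S49 (Neo) cells, 17 to 39 and 2 to 3 for the response over time in S49 (Bcl-2) and S49 (Neo) cells, 9 to 19 and 30 to 32 for the response of the lines at 24 h and 48 h, 7 to 10 and 6 to 10 for the control lines, and 2 to 6 and 4 to 6 for culture time. With the replicate block 29 and 24 genes were called between the control lines at 24 h and 48 h, and 25 for dex in S49 (Bcl-2) cells at 24 h. The share of all genes called was not counted with the block, under the other scalings or with all 32 libraries in the S49 (Bcl-2) fits. Nor was it counted with a library other than S49 (Bcl-2) 24 h dex replicate 3 left out. The block gave 26 and 24 for culture time in S49 (Bcl-2) and S49 (Neo) controls. Correlations of same-numbered libraries ran there from 0.0488 to 0.615 and from -0.0869 to 0.595. Libraries of different number had means of -0.0879 and -0.109. The best match of a library had its own number for 2 of 4 and 3 of 4 libraries. Thus not every correlation was over 0.1 there. In the other dex and control pairs the lowest were 0.0786, 0.0528 and 0.0334. All 32 libraries in the fit gave 10 for culture time in S49 (Bcl-2) controls, and quantile normalization 10 in S49 (Neo) controls. The causes were not tested. The other counts stayed within 1.5 times. Of 2063 values of the named genes under the alternatives, 1965 kept sign and side of the threshold, 98 kept sign and missed the threshold and 0 changed sign. These genes were chosen because they were called. Other filters and thresholds, the fit without the trend, all 32 libraries in the fit and the block leave the change itself as it was. No sign could change there, so the 0 speaks only for the scalings and for leaving out libraries of the compared groups. No scaling moved the median of all genes by over 0.1.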
